A study of Arabidopsis thaliana with 8 samples.

Results

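The eds1 PBL19C3A line was compared with the PBL19C3A line of Arabidopsis thaliana in 4 of the 8 libraries of an RNA-seq series, across 17358 of the 18333 genes listed for any genotype. The eds1 line carries a mutation in eds1 and one in pbl19, together with the transgene pPBL19:PBL19C3A-GFP-HA, and its labels give the phenotype of Col-0. It is set against the PBL19C3A line, which has the pbl19 mutation and the transgene but an intact EDS1, and is labelled with constitutive immunity. Both lines therefore share the pbl19 mutation and the construct, which joins the PBL19 promoter to a mutated PBL19 tagged with GFP and HA. The other genotypes were the sid2 PBL19C3A line (the sid2 line), which has a sid2 mutation in the same setting and is also labelled with constitutive immunity, and wild type (WT) without the transgene. All were untreated rosettes of the Col-0 ecotype at 28 days, with 2 libraries per genotype. The comparison asks how much of the transcriptome of the PBL19C3A line is seen when EDS1 is mutated. The labels name neither the eds1 allele, nor the number of plants per library, nor whether the lines carry the same insertion of the transgene. The series describes a single biological replicate, so p-values measure the spread between libraries, which may be technical.

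EDS1 is a lipase-like protein of plant immunity that forms exclusive complexes with its relatives PAD4 and SAG101. The complexes receive signals from intracellular receptors with a TIR domain and pass them to helper receptors of the ADR1 and NRG1 families. Together with PAD4, EDS1 also promotes synthesis of the defence hormone salicylic acid and of N-hydroxypipecolic acid, which primes distant leaves for resistance. PBL19 is a receptor-like cytoplasmic kinase of the family that relays signals from pattern receptors at the cell surface.

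Total counts were 48470650 and 46840480 in libraries 1 and 2 of the eds1 line, and 46473863 and 37373977 in those of the PBL19C3A line. The sid2 libraries had 51202472 and 47994640 counts, and the WT libraries 46433816 and 46560720. Levels are the authors' FPKM (fragments scaled to transcript length and library size), and changes are log2 fold changes of the eds1 line over the PBL19C3A line. Their standard error (SE) was derived from the test, as the absolute change over the square root of its F statistic. A change was called at an adjusted p of at most 0.05 in edgeR's quasi-likelihood test. On the first principal component of 70.85% of the variance, the eds1 line lay at -34.34 and -48.43, the PBL19C3A line at 61.43 and 54.19, the sid2 line at 34.69 and 25.48, and WT at -51.19 and -41.83. Among genes of at least 10 FPKM, 40 were at least 3-fold higher in library 1 than in library 2 of the eds1 line and 18 the other way, against 30 and 3 in the PBL19C3A line. CAB1, a chlorophyll-binding protein of the leaf, had the highest FPKM of the genes listed for both lines in every library, while of 6 root genes and 9 flower genes only 2 and 2 were listed for both lines.

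The genes named by the genotypes differed strongly between the lines. EDS1 (AT3G48090) stood at 4.99 and 3.21 FPKM in libraries 1 and 2 of the eds1 line, 55.7 and 58.4 FPKM in the PBL19C3A line and 8.03 and 13.4 FPKM in WT (log2 fold change -3.80 ± 0.31 SE, adjusted p = 0.000326 against the PBL19C3A line). Reads of EDS1 were still counted in the eds1 line, below both other genotypes, and its test against WT did not pass (log2 fold change -1.42 ± 0.29 SE, adjusted p = 0.393). Its neighbour AT3G48080, annotated as an alpha/beta-hydrolase superfamily protein, had 30.2 and 33.7 FPKM in the PBL19C3A line and no value in the eds1 line. Reads of this pair may be mixed if their sequences are alike, which was not tested. PBL19 (AT5G47070), which the reference annotation lists without a symbol, stood at 65.1 and 37.9 FPKM in the eds1 line, 2197 and 1637 FPKM in the PBL19C3A line, 626 and 956 FPKM in the sid2 line and 7.4 and 10.4 FPKM in WT. It was lower in the eds1 line than in the PBL19C3A line (log2 fold change -5.22 ± 0.37 SE, adjusted p = 0.000181) and above WT in both libraries without passing that test (log2 fold change 2.49 ± 0.33 SE, adjusted p = 0.0601). Native and transgene reads of PBL19 could not be separated. The RNA of the transgene's own gene therefore moved with every difference below, and a lower dose of PBL19C3A RNA and the loss of EDS1 cannot be told apart in these libraries.

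The start of the PBL19 coding sequence is shown because the mutated codon lies there. In the TAIR10.1 sequence it lies at chr5:19120499-19120528 on the minus strand, at the beginning of a coding sequence of 410 codons before the stop. Capitals mark codon 3, a cysteine codon, and C3A names its change to alanine, counted from 1 at the initiator methionine.
PBL19 coding start: atgaacTGTctgttcttgttcaaatcaaag

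The eds1 line differed from the PBL19C3A line in 4894 of 17358 genes, or 28.2%. Of these, 2086 were higher in the eds1 line, or 12% of the genes tested, and 2808 were lower, or 16.2%. Large differences lay mostly on the lower side: 501 genes, or 2.89%, were lower by at least 4-fold and 115 genes, or 0.663%, were higher by at least 4-fold. The median log2 fold change over all genes was 0.0064. The number of calls rested on single libraries to some extent, with 2504 calls without library 2 of the eds1 line, 2479 without library 1 of the PBL19C3A line and 3247 without its library 2. Beyond these genes, 690 genes of the PBL19C3A line had no value in the eds1 line and entered no test. In bulk rosettes, fewer cells of a type and less RNA per cell cannot be told apart.

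**Figure D1:**
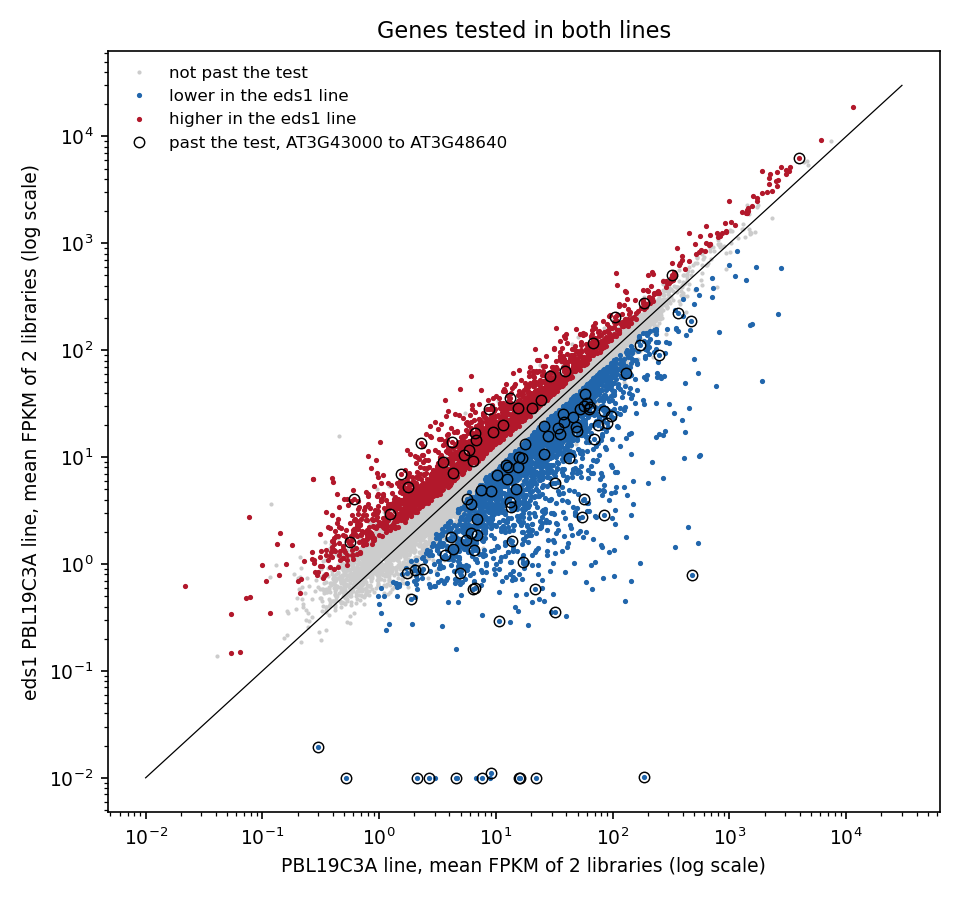
Each point is a gene listed for both lines, with the mean FPKM of the 2 libraries of the eds1 PBL19C3A line on the y axis and of the PBL19C3A line on the x axis, both on log scales, and means under 0.01 FPKM drawn at 0.01. Blue points (2808) were lower and red points (2086) higher in the eds1 line, the black line marks equal levels, and circles mark called genes of AT3G43000 to AT3G48640, among which are most of the points at the bottom edge.

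Salicylic acid is made in leaves mainly from isochorismate. Of 13 tested genes of its synthesis and turnover, 9 were lower in the eds1 line, 0 were higher and 4 did not pass the test, with a median log2 fold change of -0.97 against 0.0064 over all genes. ICS1 (AT1G74710), the isochorismate synthase that supplies the precursor, stood at 6.37 and 7.89 FPKM in the eds1 line, 72.6 and 57.1 FPKM in the PBL19C3A line and 5.81 and 8.78 FPKM in WT (log2 fold change -3.19 ± 0.24 SE, adjusted p = 0.000221). PBS3 (AT5G13320), which couples isochorismate to glutamate, was lower by more, at 0.448 and 0.717 FPKM in the eds1 line against 80.6 and 51.5 FPKM in the PBL19C3A line (log2 fold change -6.81 ± 0.39 SE, adjusted p = 8.9e-05). EDS5 (AT4G39030), the transporter that exports isochorismate from the plastid, had 1.47 and 0.953 FPKM in the eds1 line and 24.7 and 16.3 FPKM in the PBL19C3A line (log2 fold change -4.07 ± 0.27 SE, adjusted p = 0.000142). In each of these genes both libraries of the eds1 line lay well below both of the PBL19C3A line and near WT. EPS1, which releases salicylic acid from the PBS3 product, was low in all genotypes, at 1.73 and 1.75 FPKM in the eds1 line and 1.16 and 1.33 FPKM in the PBL19C3A line, and did not pass the test.

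Among the regulators of ICS1, SARD1 (AT1G73805) had 1.95 and 0.744 FPKM in the eds1 line, 106 and 101 FPKM in the PBL19C3A line and 0.719 and 1.45 FPKM in WT (log2 fold change -6.26 ± 0.47 SE, adjusted p = 0.000221). Its relative CBP60G (AT5G26920), which acts in parallel, had 18.6 and 6.83 FPKM in the eds1 line and 111 and 118 FPKM in the PBL19C3A line (log2 fold change -3.18 ± 0.57 SE, adjusted p = 0.00648). The libraries did not overlap in either gene, although those of the eds1 line differed from each other more than those of the PBL19C3A line. The third member, CBP60A, a repressor of the same step, had 31.9 and 21.1 FPKM in the eds1 line and 25.3 and 21.8 FPKM in the PBL19C3A line, and its libraries overlapped. The bZIP factor TGA1 was lower in the eds1 line (log2 fold change -0.97), whereas TGA4 stood at 15.7 and 11.6 FPKM in the eds1 line and 14.3 and 13.4 FPKM in the PBL19C3A line. DMR6 (AT5G24530), which hydroxylates salicylic acid, was at 24.4 and 9.99 FPKM in the eds1 line against 424 and 410.2 FPKM in the PBL19C3A line (log2 fold change -4.61 ± 0.39 SE, adjusted p = 0.000373). DLO1, its near relative, had 55.6 and 75.3 FPKM in the PBL19C3A line and no value in the eds1 line.

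**Figure D2:**
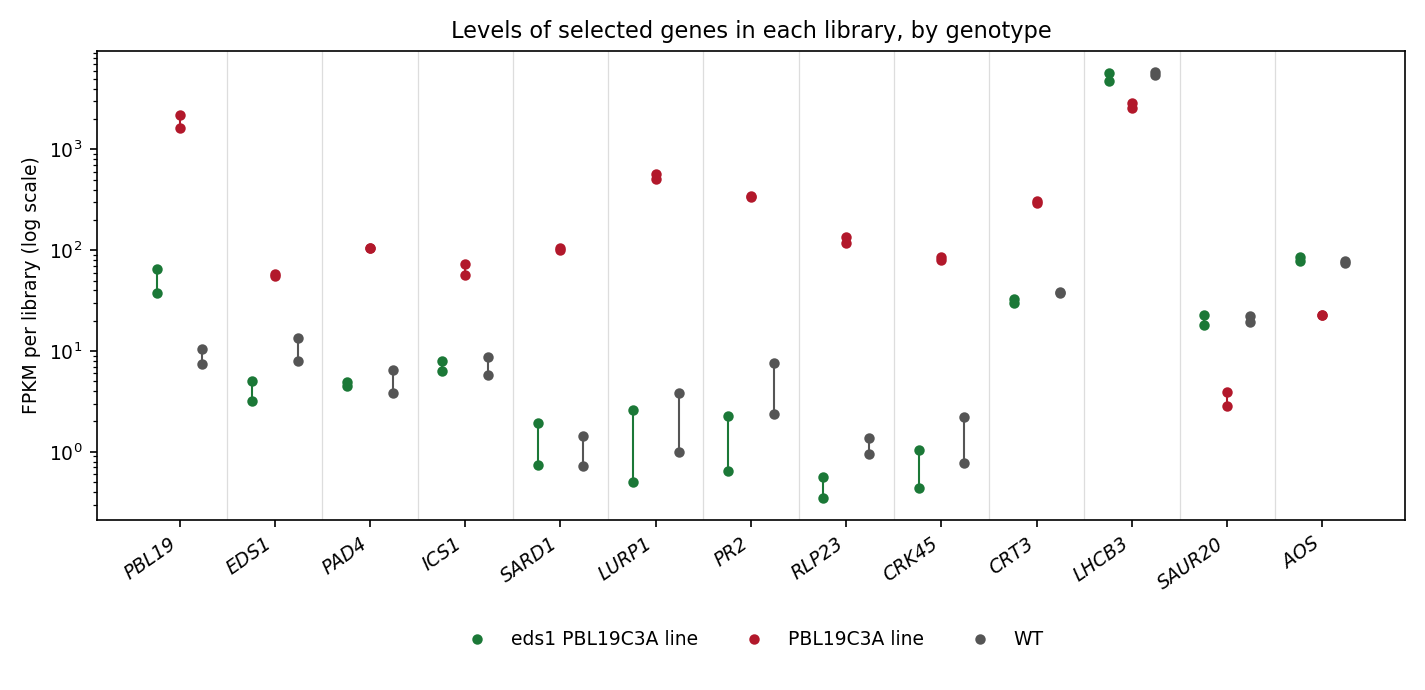
FPKM of 13 genes in each library on a log scale, with the eds1 PBL19C3A line (green), the PBL19C3A line (red) and WT (grey) side by side, each point a library and each bar joining the 2 libraries of a genotype. In the first 10 genes the libraries of the eds1 line lie below those of the PBL19C3A line, and in LHCB3, SAUR20 and AOS above them; only PBL19 has both libraries of the eds1 line far above WT.

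Of 7 genes of N-hydroxypipecolic acid and systemic resistance 4 were tested and 3 had no value in the eds1 line. ALD1, the aminotransferase of its first step, had 14.2 and 11.2 FPKM in the PBL19C3A line and 0 and 0.242 FPKM in WT. FMO1, which hydroxylates pipecolic acid, had 78.7 and 34.4 FPKM in the PBL19C3A line and 0 and 0.0523 FPKM in WT. UGT76B1, which glucosylates the product, was the third member without a value there. Among the 4 tested genes, 2 were lower, with a median log2 fold change of -2.31. AT5G52810, annotated as a NAD(P)-binding Rossmann-fold superfamily protein, had 1.76 and 1.88 FPKM in the eds1 line and 41.4 and 34.5 FPKM in the PBL19C3A line (log2 fold change -4.37 ± 0.23 SE, adjusted p = 6.19e-05). The lipid transfer proteins DIR1 and AZI1, which act in long-distance signalling, did not pass the test, with log2 fold changes of -0.12 and -0.68.

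Of the 20 genes of the salicylic acid response, 11 of 12 tested were lower in the eds1 line, 0 were higher, and 8 had no value there. The median log2 fold change of the 12 was -3.22. PR2 (AT3G57260, listed as BGL2), a secreted glucanase used as a marker of the hormone, had 0.649 and 2.26 FPKM in the eds1 line, 337 and 346 FPKM in the PBL19C3A line and 2.39 and 7.59 FPKM in WT (log2 fold change -7.87 ± 0.76 SE, adjusted p = 0.000605). PR5 (AT1G75040), a thaumatin-like protein, had 4.5 and 4.37 FPKM in the eds1 line and 158 and 105 FPKM in the PBL19C3A line (log2 fold change -4.88 ± 0.22 SE, adjusted p = 4.33e-05). LURP1 (AT2G14560), which is known for its late and strong induction by oomycete recognition, had 0.498 and 2.62 FPKM in the eds1 line and 505 and 569.8 FPKM in the PBL19C3A line (log2 fold change -8.48 ± 0.96 SE, adjusted p = 0.00112). None of the 3 was above WT in the eds1 line, and the PR2 and LURP1 libraries of the eds1 line differed several-fold at those low levels.

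The receptors of salicylic acid changed less. NPR1, the coactivator, had 17.3 and 17.3 FPKM in the eds1 line and 52.3 and 54 FPKM in the PBL19C3A line (log2 fold change -1.62 ± 0.16 SE, adjusted p = 0.000653). The corepressors NPR3 and NPR4 gave log2 fold changes of -1.46 and -1.72, and the NPR1-binding protein NIMIN3 one of -1.20, all called. WRKY70 (AT3G56400), a transcription factor between the salicylic acid and jasmonate pathways, stood at 29.2 and 22.2 FPKM in the eds1 line and 347 and 319 FPKM in the PBL19C3A line (log2 fold change -3.70 ± 0.50 SE, adjusted p = 0.00217). The single tested member that missed the threshold was WRKY53, another factor of this group, at 26.2 and 0.833 FPKM in the eds1 line and 44.4 and 35.6 FPKM in the PBL19C3A line (log2 fold change -1.58 ± 1.17 SE, adjusted p = 0.353). Its libraries in the eds1 line were far apart, library 1 near the PBL19C3A line and library 2 near WT. The same split between libraries 1 and 2 of the eds1 line was seen in WRKY33 (134 and 20.7 FPKM) and in WRKY46 (5.35 and 0.586 FPKM), and WRKY46 was called (log2 fold change -3.33 ± 0.86 SE, adjusted p = 0.0257).

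The list of EDS1 with its partners and helper receptors was mostly lower. Of 8 tested genes 7, the mutated EDS1 included, were lower in the eds1 line and 0 higher. The median log2 fold change, EDS1 included, was -1.93. PAD4 (AT3G52430) had 4.45 and 4.91 FPKM in the eds1 line, 105 and 105 FPKM in the PBL19C3A line and 3.79 and 6.45 FPKM in WT (log2 fold change -4.48 ± 0.30 SE, adjusted p = 0.000148). SAG101 (AT5G14930) had 7.86 and 6.34 FPKM in the eds1 line and 29.4 and 26.9 FPKM in the PBL19C3A line (log2 fold change -2.02 ± 0.17 SE, adjusted p = 0.000326). Both partners of EDS1 stood near WT in the eds1 line, with PAD4 the more changed of the pair. The helper receptors ADR1 and ADR1-L1 gave log2 fold changes of -1.84 and -1.61, while ADR1-L2, at 35.2 and 32.1 FPKM in the eds1 line and 50.5 and 59.5 FPKM in the PBL19C3A line, did not pass the test (adjusted p = 0.102). AT5G66910, one of a pair of neighbouring receptor genes of the NRG1 type, gave log2 fold change -2.05 ± 0.11 SE, adjusted p = 8.36e-05, and its neighbour AT5G66900 log2 fold change -0.61 ± 0.12 SE, adjusted p = 0.0113.

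Sensor receptors inside the cell were lower by smaller steps, with 14 of 18 tested genes lower, 0 higher and a median of -0.86. Only 9 of them were called without library 1 of the eds1 line, without its library 2 or without library 1 of the PBL19C3A line. RPS4 and RRS1, a head-to-head receptor pair for bacterial effectors, gave log2 fold changes of -1.07 and -0.62. RPS2 (AT4G26090), which guards the protein RIN4, had 6.6 and 7.91 FPKM in the eds1 line and 19.1 and 21.6 FPKM in the PBL19C3A line (log2 fold change -1.49 ± 0.18 SE, adjusted p = 0.00145). ZAR1 (AT3G50950), the receptor that forms a resistosome, had 54.4 and 53.7 FPKM in the eds1 line and 149 and 159 FPKM in the PBL19C3A line (log2 fold change -1.51 ± 0.25 SE, adjusted p = 0.00523). Both are coiled-coil receptors, and the RNA of both was lower. RPP13 (AT3G46530) had the lowest log2 fold change of the list, -2.47, with 5.93 and 5.64 FPKM in the eds1 line against 30.4 and 33.7 FPKM in the PBL19C3A line and 20.5 and 28.1 FPKM in WT, and lies in the interval around eds1 described at the end.

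At the cell surface, 17 of 28 pattern receptors and signalling genes were lower in the eds1 line, 0 were higher and 11 did not pass the test, with a median of -1.07. Without library 2 of the eds1 line 10 were called, and without library 1 of the PBL19C3A line 11. The largest change was that of RLP23 (AT2G32680), the receptor-like protein for a conserved peptide of microbial NLP toxins. It had 0.558 and 0.346 FPKM in the eds1 line, 135 and 119 FPKM in the PBL19C3A line and 0.941 and 1.37 FPKM in WT (log2 fold change -8.11 ± 0.28 SE, adjusted p = 1.81e-05). SOBIR1 (AT2G31880), the kinase with which receptor-like proteins of this kind associate, had 55.6 and 44.1 FPKM in the eds1 line and 404 and 426 FPKM in the PBL19C3A line (log2 fold change -3.06 ± 0.35 SE, adjusted p = 0.00115). BAK1, the shared coreceptor, changed less (log2 fold change -1.08 ± 0.16 SE, adjusted p = 0.00306). In contrast to RLP23, the flagellin receptor FLS2 had 16.3 and 11.6 FPKM in the eds1 line and 20.5 and 16.3 FPKM in the PBL19C3A line and did not pass the test (adjusted p = 0.401). The elongation factor receptor EFR, at 0.912 and 0.676 FPKM in the eds1 line and 4.79 and 5.22 FPKM in the PBL19C3A line, was lower (log2 fold change -2.65 ± 0.39 SE, adjusted p = 0.00308).

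Downstream of the receptors, the immune MAP kinase gene MPK4 was lower in the eds1 line (log2 fold change -0.97 ± 0.13 SE, adjusted p = 0.0025), and so was MPK3 (log2 fold change -1.48 ± 0.36 SE, adjusted p = 0.021), which lies in the interval around eds1. MPK6, which acts beside MPK3, stood at 43.4 and 35.6 FPKM in the eds1 line and 47.6 and 46.1 FPKM in the PBL19C3A line and did not pass the test (adjusted p = 0.136). MPK11, a close relative of MPK4, had 50.1 and 46.9 FPKM in the PBL19C3A line and no value in the eds1 line. The heterotrimeric G protein subunit XLG2 had 12.4 and 9.77 FPKM in the eds1 line and 51.8 and 40.4 FPKM in the PBL19C3A line (log2 fold change -2.06 ± 0.24 SE, adjusted p = 0.00131). Receptor-like cytoplasmic kinases related to PBL19 were lower as well, since in its subfamily all 4 tested genes, PBL19 included, were lower and 2 had no value, with a median of -1.89. AT2G28940, a kinase of this subfamily, had 6.71 and 6.28 FPKM in the eds1 line and 22.2 and 26.8 FPKM in the PBL19C3A line (log2 fold change -1.91 ± 0.17 SE, adjusted p = 0.000428). BIK1, the best known kinase of the wider family, was called at the margin (log2 fold change -1.30, adjusted p = 0.0454), with 13.6 and 4.89 FPKM in the eds1 line and 22.8 and 22.6 FPKM in the PBL19C3A line.

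Cysteine-rich receptor-like kinases are transmembrane kinases, many of which respond to salicylic acid and pathogens. Of 12 tested genes of the list 10 were lower and 0 higher, with a median of -3.43. Grouped by product name instead, 11 of 19 tested genes were lower and 2 higher, with a median of -1.23. The lowest was CRK4 (log2 fold change -14.0), which lies in the interval around eds1 described at the end. CRK45 (AT4G11890) had 1.03 and 0.439 FPKM in the eds1 line, 80.7 and 85.6 FPKM in the PBL19C3A line and 0.777 and 2.22 FPKM in WT (log2 fold change -6.65 ± 0.58 SE, adjusted p = 0.000389). CRK13 (AT4G23210) had 0.277 and 0.514 FPKM in the eds1 line and 16 and 12.9 FPKM in the PBL19C3A line (log2 fold change -5.17 ± 0.62 SE, adjusted p = 0.00141). A further 7 members, CRK6, CRK7, CRK8, CRK20, CRK23, CRK36 and CRK37, had no value in the eds1 line; CRK6 stood highest among them, at 63.9 and 76.6 FPKM in the PBL19C3A line. Many of these genes lie side by side on chromosome 4 and resemble each other, so reads may be shared among them. CRK10 and CRK41 did not pass the test, with log2 fold changes of -1.04 and -0.25.

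**Figure D3:**
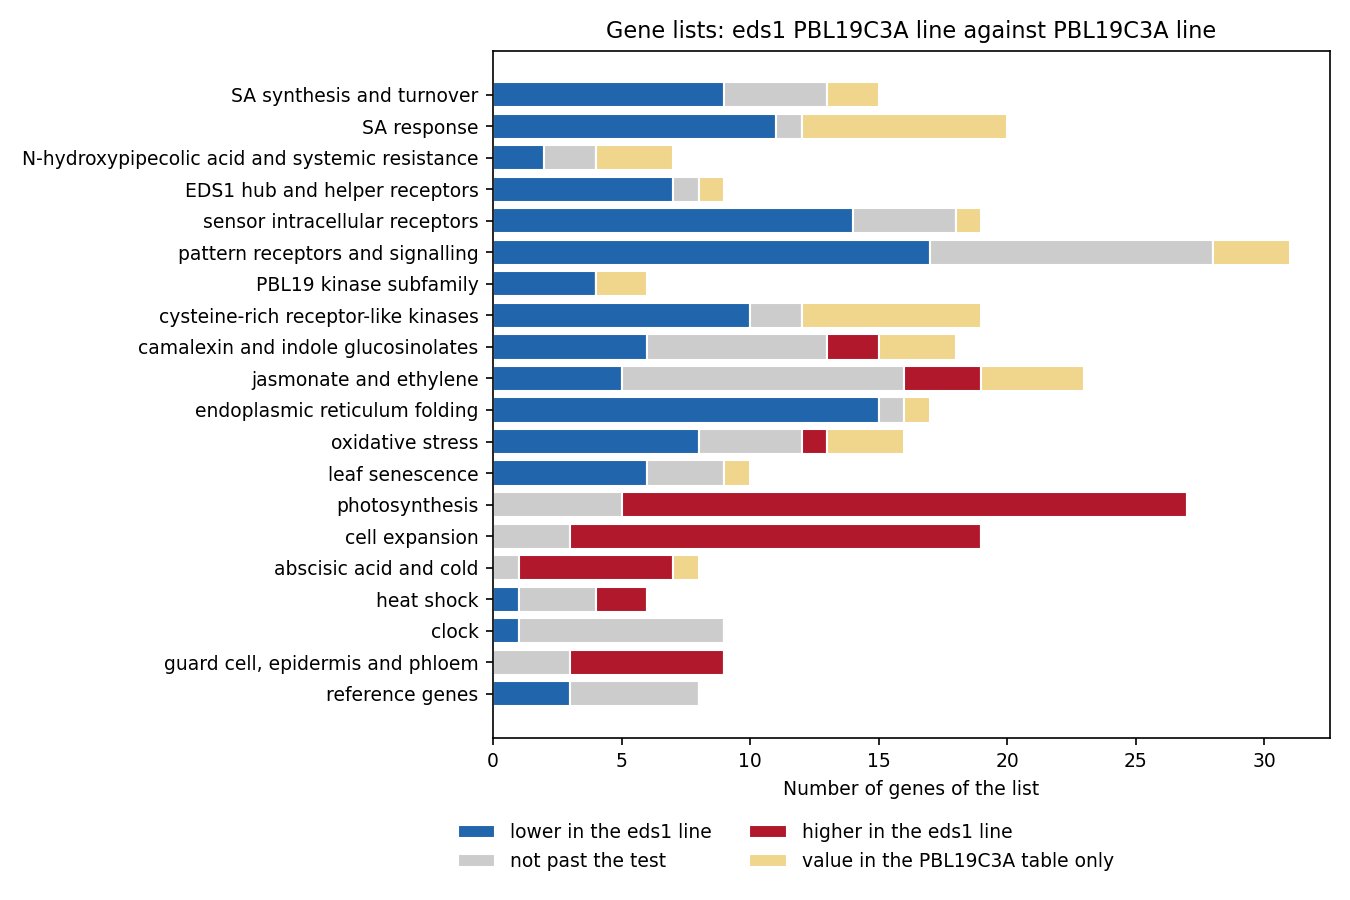
Number of genes in each list that were lower (blue), not past the test (grey) or higher (red) in the eds1 PBL19C3A line relative to the PBL19C3A line, and that had a value in the PBL19C3A table alone (yellow). Of the 12 tested genes of the salicylic acid response 11 are blue, and its 8 yellow genes entered no test. Photosynthesis with 22 and cell expansion with 16 higher genes have no blue part.

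Camalexin, the indole phytoalexin of Arabidopsis, and indole glucosinolates share early steps. Of 15 tested genes 6 were lower in the eds1 line, 2 were higher and 7 did not pass the test, with a median of -1.17. CYP71A12 (AT2G30750), on the camalexin branch, had 1.15 and 1.72 FPKM in the eds1 line and 50.8 and 31.2 FPKM in the PBL19C3A line (log2 fold change -4.83 ± 0.36 SE, adjusted p = 0.00021). CYP79B2 (AT4G39950), which converts tryptophan to its oxime at the shared step, had 4.98 and 4.15 FPKM in the eds1 line and 46.9 and 23.1 FPKM in the PBL19C3A line (log2 fold change -2.93 ± 0.30 SE, adjusted p = 0.000771). Its duplicate CYP79B3 went the other way, with 26.8 and 24.2 FPKM in the eds1 line and 15.6 and 11.9 FPKM in the PBL19C3A line (log2 fold change 0.89 ± 0.21 SE, adjusted p = 0.0188). MYB34, a regulator of indole glucosinolates, was also higher, at 7.75 and 5.29 FPKM in the eds1 line and 1.11 and 0.838 FPKM in the PBL19C3A line (log2 fold change 2.72 ± 0.43 SE, adjusted p = 0.00427). The duplicated enzymes of the shared step therefore differed in opposite directions. PAD3, the last enzyme of camalexin synthesis, had 31.9 and 16.5 FPKM in the PBL19C3A line and no value in the eds1 line. CYP81F2 had 31.9 and 5.07 FPKM in the eds1 line and 23.3 and 22.3 FPKM in the PBL19C3A line, its eds1 libraries on either side of the PBL19C3A line.

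Jasmonate and ethylene genes showed no common direction: of 19 tested genes 3 were higher, 5 lower and 11 not past the test, with a median of 0.26. Between 3 and 8 of them were called when single libraries were left out, with 4 and 5 called without libraries 1 and 2 of the eds1 line and 4 and 3 without those of the PBL19C3A line. AOS (AT5G42650), the allene oxide synthase of jasmonate synthesis, had 77.9 and 85.1 FPKM in the eds1 line, 22.8 and 22.6 FPKM in the PBL19C3A line and 78.9 and 74.5 FPKM in WT (log2 fold change 1.85 ± 0.11 SE, adjusted p = 0.0001). VSP2, a jasmonate-induced storage protein, had 39.3 and 47 FPKM in the eds1 line and 4.2 and 5.64 FPKM in the PBL19C3A line (log2 fold change 3.14 ± 0.72 SE, adjusted p = 0.0176). Both were higher in both libraries of the eds1 line, and VSP2 was not called without library 2 of the eds1 line or without either library of the PBL19C3A line. HEL (AT3G04720), a chitin-binding protein induced by ethylene, was lower, at 36.2 and 28.5 FPKM in the eds1 line and 265 and 207 FPKM in the PBL19C3A line (log2 fold change -2.87 ± 0.20 SE, adjusted p = 0.00018). The chitinase CHIB was lower too (log2 fold change -1.71 ± 0.30 SE, adjusted p = 0.00587). The defensins PDF1.2A and PDF1.3 had 7.76 and 5.78 FPKM and 5.19 and 4.06 FPKM in the PBL19C3A line and no value in the eds1 line.

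Chaperones and enzymes of protein folding in the endoplasmic reticulum serve the secretion of defence proteins. In the list of such genes 15 of 16 tested were lower and 0 higher, with a median of -1.04. Families grouped by product name moved less. Protein disulfide isomerases were lower in 5 and higher in 1 of 13 tested genes, with a median of -0.095. Translocon and signal peptidase genes were lower in 7 and higher in 1 of 28, with a median of -0.27. CRT3 (AT1G08450), the calreticulin needed for maturation of EFR, had 32.4 and 29.9 FPKM in the eds1 line, 307 and 296 FPKM in the PBL19C3A line and 37.9 and 38.4 FPKM in WT (log2 fold change -3.27 ± 0.12 SE, adjusted p = 1.87e-05). The other calreticulins changed less, with log2 fold changes of -0.50 for CRT1A and -0.80 for CRT1B. The Hsp70 chaperone BIP2 had 30.9 and 35.7 FPKM in the eds1 line and 98.9 and 87.5 FPKM in the PBL19C3A line (log2 fold change -1.48 ± 0.13 SE, adjusted p = 0.000386). TBF1 (AT4G36990), a heat-shock-factor-like regulator of these genes, had 5.69 and 5.3 FPKM in the eds1 line and 105 and 62.3 FPKM in the PBL19C3A line (log2 fold change -3.92 ± 0.23 SE, adjusted p = 9.49e-05). CRT3 and TBF1 stood well apart from the general chaperones, which changed by smaller steps. The BZIP60 gene, target of the stress sensor IRE1, had 50.5 and 20.1 FPKM in the eds1 line and 72.2 and 55 FPKM in the PBL19C3A line. It was the member of the list that did not pass the test.

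Of 13 genes of oxidative stress 8 were lower in the eds1 line and 1 was higher, with a median of -1.42. The glutathione transferase GSTU10 had 2.13 and 2.6 FPKM in the eds1 line and 32.1 and 34.6 FPKM in the PBL19C3A line (log2 fold change -3.81 ± 0.17 SE, adjusted p = 3.99e-05), and the apoplastic peroxidase PRX34 had 33.8 and 24.2 FPKM in the eds1 line and 575 and 318 FPKM in the PBL19C3A line (log2 fold change -3.94 ± 0.31 SE, adjusted p = 0.000263). The cytosolic superoxide dismutase CSD1 was lower as well (log2 fold change -2.14 ± 0.19 SE, adjusted p = 0.000421). The member that was higher was CAT2, the catalase of photorespiration, at 859 and 859 FPKM in the eds1 line and 521 and 617 FPKM in the PBL19C3A line (log2 fold change 0.61 ± 0.13 SE, adjusted p = 0.0128). Of 9 tested leaf senescence genes 6 were lower and 0 higher, with a median of -1.26. SAG13 (AT2G29350), a short-chain dehydrogenase that marks early senescence and cell death, had 0.595 and 0.803 FPKM in the eds1 line and 200.4 and 84.1 FPKM in the PBL19C3A line (log2 fold change -7.60 ± 0.77 SE, adjusted p = 0.000718). NYE1, which starts chlorophyll breakdown, gave log2 fold change -1.26 ± 0.19 SE, adjusted p = 0.00318, while the dark-induced SEN1 had 1802 and 899 FPKM in the eds1 line and 1186 and 1374 FPKM in the PBL19C3A line and overlapped.

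Photosynthesis genes were higher in the eds1 line. Of 27 tested genes 22 were higher and 0 lower, with a median log2 fold change of 0.60 and a range of 0.062 to 1.00. CAB3 (AT1G29910), a chlorophyll-binding protein of the photosystem II antenna, had 3934 and 4886 FPKM in the eds1 line, 2170.0 and 2248 FPKM in the PBL19C3A line and 5473 and 4667 FPKM in WT (log2 fold change 1.00 ± 0.16 SE, adjusted p = 0.00435). LHCB3 (AT5G54270), of the same antenna, had 4743 and 5679 FPKM in the eds1 line and 2603 and 2907 FPKM in the PBL19C3A line (log2 fold change 0.92 ± 0.15 SE, adjusted p = 0.00471). The libraries of the eds1 line lay above those of the PBL19C3A line and near those of WT in both genes. Carbon fixation genes were less uniform: PRK was called (log2 fold change 0.60 ± 0.12 SE, adjusted p = 0.00929), whereas RBCS1A, RBCS2B, RBCS3B, RCA and GAPA were the 5 members that did not pass the test. These calls rested on 1 library in large part, since 4 of the 27 genes were called without library 1 of the PBL19C3A line and 11 without library 2 of the eds1 line.

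Growth genes were also higher in the eds1 line, with 16 of 19 tested genes of cell expansion higher, 0 lower and a median of 1.51. SAUR20 (AT5G18020), a small auxin-induced protein that promotes elongation, had 18.3 and 22.6 FPKM in the eds1 line, 2.84 and 3.91 FPKM in the PBL19C3A line and 22.4 and 19.6 FPKM in WT (log2 fold change 2.59 ± 0.28 SE, adjusted p = 0.000971). Its neighbours SAUR21, SAUR22, SAUR23 and SAUR24 gave log2 fold changes of 2.81, 2.54, 1.94 and 2.36, and these genes are so alike that their reads may be shared. PRE1 (AT5G39860), a small helix-loop-helix protein of growth, had 11.4 and 8.99 FPKM in the eds1 line and 0.937 and 0.675 FPKM in the PBL19C3A line (log2 fold change 3.60 ± 0.49 SE, adjusted p = 0.00222). The wall-loosening expansin EXPA5 had 7.51 and 13.2 FPKM in the eds1 line and 2.07 and 2.58 FPKM in the PBL19C3A line (log2 fold change 2.16 ± 0.32 SE, adjusted p = 0.00314). XTH17, which cuts and rejoins xyloglucan, had the largest value of the list at low levels, 4.23 and 8.27 FPKM in the eds1 line and 0.3 and 0.244 FPKM in the PBL19C3A line (log2 fold change 4.47 ± 0.52 SE, adjusted p = 0.00127). Its family, grouped by product name, was less uniform, with 7 higher and 3 lower of 19 tested genes and a median of 0.49. Without library 1 of the PBL19C3A line 10 of the 19 genes of the cell expansion list were called.

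Abscisic acid and cold genes were higher in 6 of 7 tested genes and lower in 0, with a median of 1.38, and 3 were called without library 2 of the eds1 line or without library 2 of the PBL19C3A line. COR15A, a chloroplast protein of freezing tolerance, had 30.2 and 84.4 FPKM in the eds1 line and 8.07 and 4.12 FPKM in the PBL19C3A line (log2 fold change 3.24 ± 0.55 SE, adjusted p = 0.00536). Of 6 heat shock genes 2 were higher and 1 lower, with 1 called without library 2 of the eds1 line or library 1 of the PBL19C3A line. Of 9 clock genes 1 was called, TOC1, which was lower (log2 fold change -1.46 ± 0.27 SE, adjusted p = 0.00754), and 2 were called without library 1 of the eds1 line. Markers of other leaf cell types moved too: of 9 genes of guard cells, epidermis and phloem 6 were higher and 0 lower, with a median of 0.76. Their summed level was 1619 and 1919 FPKM in the eds1 line, 795 and 871 FPKM in the PBL19C3A line and 1665 and 1635 FPKM in WT, most of it from the myrosinase TGG1, and none of them was at 0. The other 8 summed to 262 and 346 FPKM in the eds1 line and 211 and 190.1 FPKM in the PBL19C3A line, and 3 of the 9 were called without library 2 of the eds1 line or without library 1 of the PBL19C3A line. The 2 root genes summed to 144 and 166 FPKM in the eds1 line and 79.9 and 79.4 FPKM in the PBL19C3A line, with 1 higher, and of the 2 flower genes 1 was higher and none was called when any library was left out. The part of cell composition in the other results was not tested. Reference genes used for normalisation moved little, with 3 of 8 called lower (UBQ10, GAPC1 and AT4G34270, log2 fold changes of -0.44, -0.46 and -0.40), a median of -0.017, and at most 1 called when any library was left out.

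The 690 genes with a value in the PBL19C3A line and none in the eds1 line could not be tested. By its values, each table lists a gene only where at least 2 of its 4 libraries, 2 of WT and 2 of the line, reach 1 CPM (counts scaled to library size). A gene that is high in the PBL19C3A line and low in WT and in the eds1 line is therefore absent for the eds1 line. Every one of the 16950 genes for which both WT libraries reached 1 CPM had a value in the eds1 line. For 112 of the 690 genes 1 WT library reached 1 CPM, so both libraries of the eds1 line were below 1 CPM. For the other 578 at most 1 library of the eds1 line can have reached it. In the PBL19C3A line 148 of them were at 10 FPKM or more. Against WT 574 were called higher in the PBL19C3A line, beside 36.2% of all genes called in either direction, 21.4% higher and 14.9% lower; the table filter fixes that direction for these genes, so nothing is read from their count.

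PR1 (AT2G14610), the classic marker of salicylic acid signalling, was the highest of these genes. It had 2889 and 1247 FPKM in the PBL19C3A line, 46.9 and 64.2 FPKM in the sid2 line and 1.12 and 0.651 FPKM in WT. PCR1 (AT1G14880), a small membrane protein of the cadmium resistance family, had 751 and 861 FPKM in the PBL19C3A line and 0.523 and 1.92 FPKM in WT. Because library 2 of WT passed 1 CPM for PCR1, the gene was at least 642-fold lower in the eds1 line, with 1 CPM as its upper limit in both libraries. AIG1 (AT1G33960), a GTP-binding protein induced by avirulent bacteria, was at least 374-fold lower by the same reasoning, with 261 and 233 FPKM in the PBL19C3A line. PNP-A, a natriuretic-peptide-like protein, had 109.9 and 118 FPKM in the PBL19C3A line, and NUDT6, a nudix hydrolase that acts on NADH, had 74.3 and 72.3 FPKM. WRKY38, WRKY51, WRKY54, WRKY62, NIMIN1, NIMIN2 and GRX480, regulators of the salicylic acid response, were also among the genes without a value. The limits for PCR1 and AIG1 set the mean CPM of the PBL19C3A line against 1 CPM and leave out the spread between libraries. In the other direction, 176 genes had a value in the eds1 line and none in the PBL19C3A line, with a median of 0.965 FPKM and 3 genes at 10 FPKM or more.

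**Figure D4:**
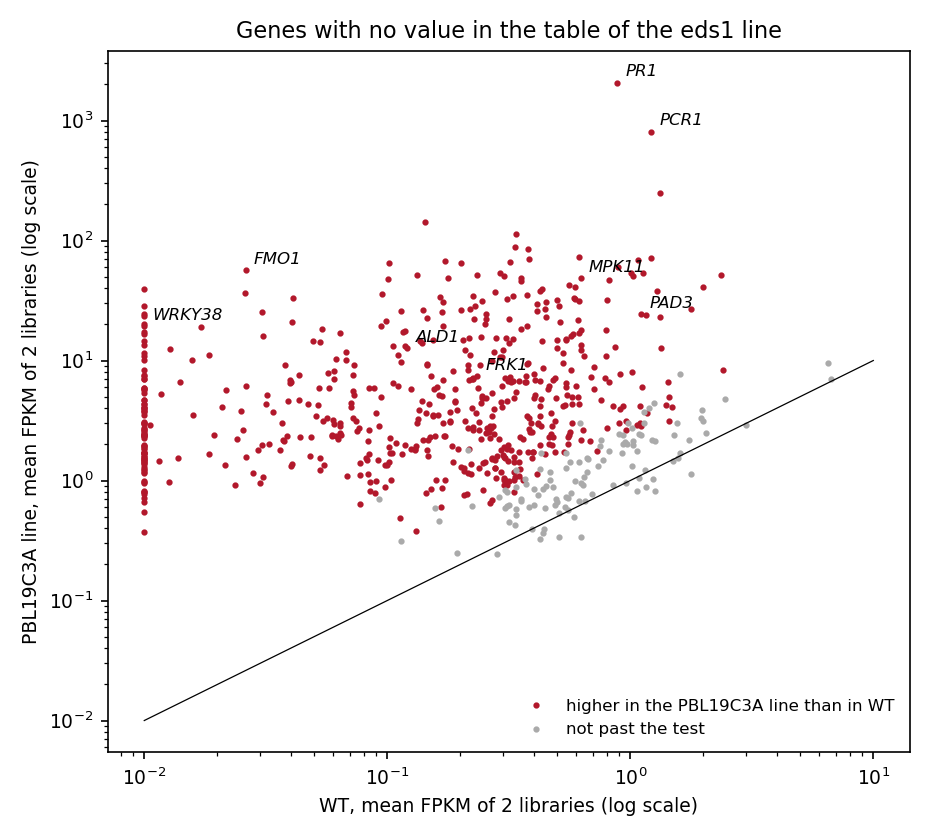
The 690 genes with no value in the table of the eds1 PBL19C3A line, with the mean FPKM of the 2 libraries of the PBL19C3A line on the y axis and of WT on the x axis, both on log scales, and means under 0.01 FPKM drawn at 0.01. Red points (574) were higher in the PBL19C3A line than in WT and grey points (116) did not pass the test; PR1 and PCR1 lie at the top.

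Among the largest changes outside the lists and outside the interval around eds1 were the following genes, chosen after their values were seen. CHI (AT2G43570), a chitinase, had 2.7 and 1.74 FPKM in the eds1 line, 527 and 358 FPKM in the PBL19C3A line and 2.47 and 4.77 FPKM in WT (log2 fold change -7.62 ± 0.43 SE, adjusted p = 8.81e-05). AT2G45220, annotated as a pectin methylesterase inhibitor superfamily protein, had 0.825 and 1.21 FPKM in the eds1 line and 217 and 126 FPKM in the PBL19C3A line (log2 fold change -7.38 ± 0.39 SE, adjusted p = 6.44e-05). AT5G10760, an aspartyl protease family protein, had 0.552 and 1.0 FPKM in the eds1 line and 93.3 and 112 FPKM in the PBL19C3A line (log2 fold change -7.03 ± 0.41 SE, adjusted p = 8.9e-05). At the other end, ADS1 (AT1G06080), a delta 9 fatty acid desaturase, had 26.1 and 42.4 FPKM in the eds1 line and 3.69 and 3.65 FPKM in the PBL19C3A line (log2 fold change 3.23 ± 0.36 SE, adjusted p = 0.00101). MRD1 (AT1G53480) had the highest log2 fold change under the naming rule, with 708 and 844 counts in the eds1 line, 65 and 38 counts in the PBL19C3A line and 1 and 2 counts in WT (log2 fold change 3.76 ± 0.27 SE, adjusted p = 0.000326). It was therefore far above WT in the eds1 line.

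Against WT, the eds1 line differed in few genes. Of 17534 genes 28 were called, or 0.16%, with 6 higher (0.0342%) and 22 lower (0.125%), and 611 had an unadjusted p under 0.05. DESeq2 called 92, with 47 higher and 45 lower, so the excess on the lower side was not seen with that tool. None of the immune, photosynthesis or growth lists had a called member against WT except RPP13 and CRK4, both in the interval around eds1. Of the 28 genes 20 lie in that interval, 6 are loci outside the reference annotation, and 2 are annotated elsewhere, MRD1 and QQS. QQS (AT3G30720), an orphan gene that affects starch content, had 0 and 0 counts in the eds1 line, 62 and 88 counts in the PBL19C3A line and 161 and 103 counts in WT. With a floor of 3 counts over both libraries of the eds1 line together, it was at least 56.8-fold lower than in the PBL19C3A line and at least 90.2-fold lower than in WT. A p that misses the threshold does not show equal levels: WRKY53 had 26.2 and 0.833 FPKM in the eds1 line and 1.22 and 1.25 FPKM in WT (log2 fold change 3.38 ± 1.32 SE, adjusted p = 1).

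The sid2 line allows the eds1 and sid2 mutations to be set side by side in the presence of the transgene. Between the eds1 line and the sid2 line 1636 of 17397 genes were called, or 9.4%, of which 415 were higher (2.39%) and 1221 lower (7.02%) in the eds1 line. The count was 629 without library 2 of the eds1 line, and 617 and 985 without libraries 1 and 2 of the sid2 line. PAD4 stood at 4.45 and 4.91 FPKM in the eds1 line and 51.8 and 76.7 FPKM in the sid2 line (log2 fold change -3.76 ± 0.29 SE, adjusted p = 0.000508). PBS3 stood at 0.448 and 0.717 FPKM in the eds1 line and 50.6 and 79.5 FPKM in the sid2 line (log2 fold change -6.77 ± 0.39 SE, adjusted p = 0.000202). PBS3 was as high in the sid2 line as in the PBL19C3A line, PAD4 lay between the eds1 line and the PBL19C3A line, and the eds1 line was near WT in both. The highest changes over the sid2 line were those of AT1G53540, a small heat shock protein, and of IAA29, a repressor of auxin response, at log2 fold changes of 2.66 and 2.64. ABCG40, a transporter of abscisic acid named after its values were seen, stood at 0.326 and 0.379 FPKM in the eds1 line and 59.6 and 39.1 FPKM in the sid2 line (log2 fold change -7.09 ± 0.71 SE, adjusted p = 0.00164). Of the 12 tested salicylic acid response genes 7 were lower in the eds1 line than in the sid2 line, with a median of -1.75, and of 16 endoplasmic reticulum genes 8 were lower, with a median of -0.51. Against the sid2 line 6 of 27 photosynthesis genes and 9 of 19 cell expansion genes were higher. PBL19 itself was lower than in the sid2 line (log2 fold change -3.93 ± 0.35 SE, adjusted p = 0.000886). ICS1, which is mutated in the sid2 line, did not pass the test between these lines, at 6.37 and 7.89 FPKM in the eds1 line and 5.02 and 4.45 FPKM in the sid2 line (adjusted p = 0.144).

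The genes AT3G43000 to AT3G48640, which surround eds1 on chromosome 3, stood apart in the comparison with WT. Genes were placed there by locus number. Of 291 such genes 20 were called against WT, or 6.87%, and of 17243 other genes 8, or 0.0464%. Of these 8 genes 6 are loci outside the annotation without a known position, so they may lie in the interval too. Against the PBL19C3A line 106 of 283 genes of the interval were called, or 37.5%, with 28 higher and 78 lower, and of the other genes 4788 of 17075, or 28%. Of 12 tested genes with 0 counts in both libraries of the eds1 line 8 lie in the interval, 3 are loci outside the annotation and the other is QQS, and each had at least 20 counts in both WT libraries. AT3G47680, a DNA-binding protein by its annotation, had 1277 and 1036 counts in the PBL19C3A line and 1120 and 1261 counts in WT, and was at least 876-fold lower than in the PBL19C3A line by the same floor over both libraries. HSD2 (AT3G47350), a steroid dehydrogenase of oil bodies, had 0 counts in both libraries of the eds1 line, 799 and 594 counts in the PBL19C3A line and 889 and 702 counts in WT. CRK4 (AT3G45860), a cysteine-rich receptor-like kinase, had 0 and 2 counts in the eds1 line, 17696 and 14921 counts in the PBL19C3A line and 537 and 694 counts in WT. AT3G44070, a glycosyl hydrolase family protein, showed the reverse, with 624 and 590 counts in the eds1 line, 0 and 0 counts in WT and no value in the PBL19C3A line.

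Other genes of this interval were low in both WT and the eds1 line and high in the PBL19C3A line. NIT2 (AT3G44300), a nitrilase, had 0.705 and 0.89 FPKM in the eds1 line, 559 and 392 FPKM in the PBL19C3A line and 2.4 and 2.59 FPKM in WT (log2 fold change -9.20 ± 0.35 SE, adjusted p = 2.52e-05), and was not called against WT (adjusted p = 0.206). LHCA4, a photosystem I antenna protein encoded there, was higher like most photosynthesis genes (log2 fold change 0.67 ± 0.13 SE, adjusted p = 0.00834). Whether sequence near eds1 differs between the eds1 line and Col-0 was not tested, since the tables hold no reads. List members in the interval were EDS1, AT3G48080, RPP13, MPK3, CRK4, LOX2, PAO, LHCA4, HSP17.4 and LUX. They are included in the counts of their lists above.

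**Figure D5:**
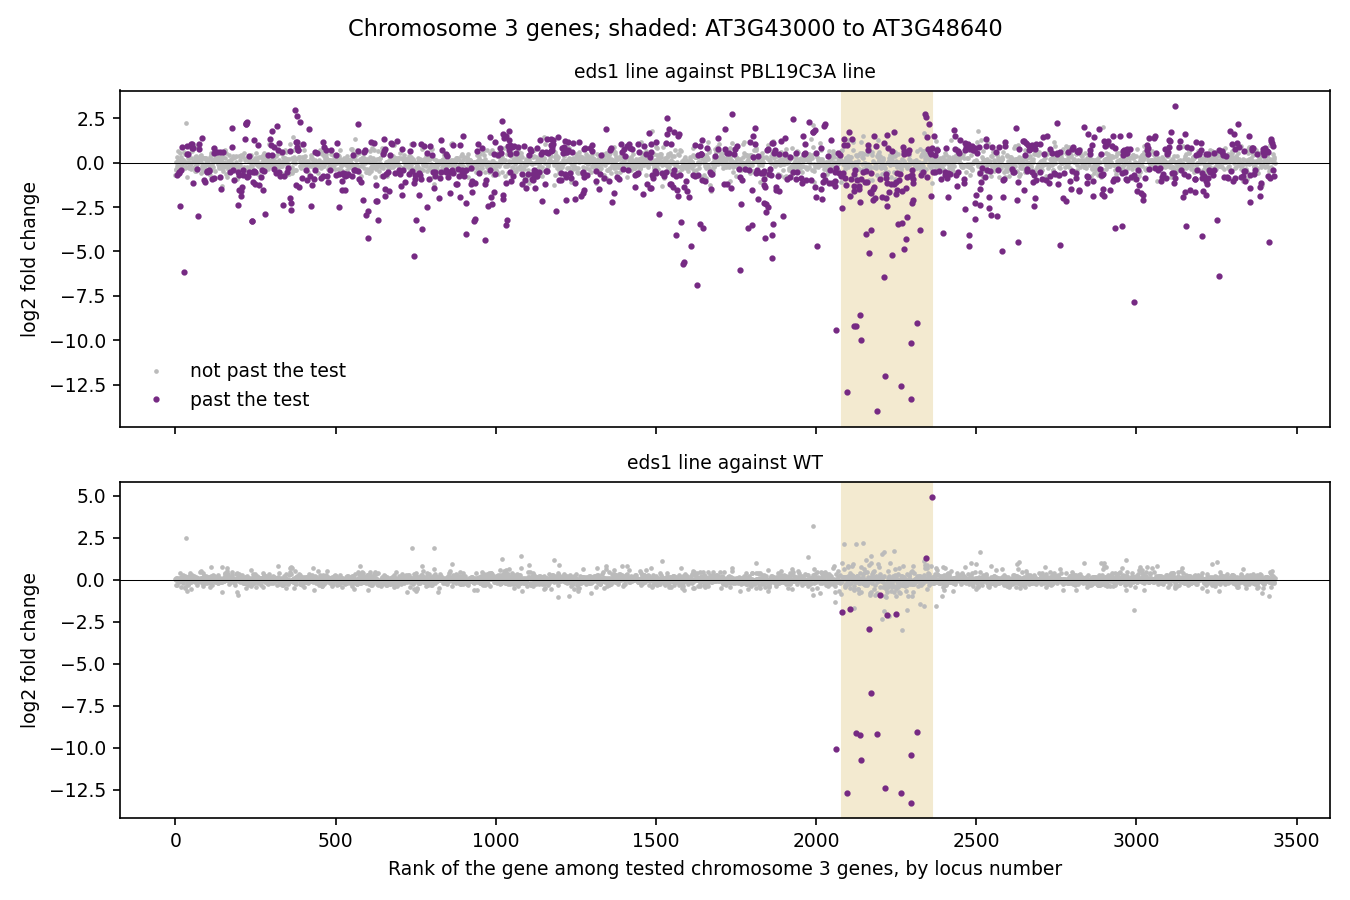
Log2 fold changes of the tested chromosome 3 genes in order of locus number, with the eds1 PBL19C3A line against the PBL19C3A line above and against WT below, purple points past the test and grey points not, and AT3G43000 to AT3G48640 shaded. Called genes spread along the whole chromosome in the upper panel, and in the lower panel they lie in the shaded stretch, apart from QQS just left of it; the fitted values below -9 in that panel belong to genes at or near 0 counts and depend on the fit.

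Promoter sequence is shown for PBL19, whose promoter drives the transgene, and for RLP23, which was chosen after its values were seen. The W-box core TTGAC, bound by WRKY factors, and TGACG, bound by TGA factors, were searched on both strands in the 250 bases before each annotated gene start of TAIR10.1. The motifs share 4 letters and can overlap. TTGAC was found in 60.6% of 492 promoters of genes lower by at least 4-fold, in 61.1% of 664 promoters of genes without a value, in 42.3% of 111 promoters of genes higher by at least 4-fold, and in 44.2% of the 17046 promoters of tested genes. TGACG was found in 26.4%, 23.5%, 20.7% and 19.3% of the same sets. These shares are descriptions of the letters and were not tested. Capitals mark TTGAC or its complement GTCAA in the stretches of PBL19 (chr5:19121104-19121353, minus strand) and RLP23 (chr2:13862615-13862864, minus strand), read 5′ to 3′ toward the gene. PBL19 has 0 of either motif, and RLP23 has 2 TTGAC, 1 on each strand.
PBL19: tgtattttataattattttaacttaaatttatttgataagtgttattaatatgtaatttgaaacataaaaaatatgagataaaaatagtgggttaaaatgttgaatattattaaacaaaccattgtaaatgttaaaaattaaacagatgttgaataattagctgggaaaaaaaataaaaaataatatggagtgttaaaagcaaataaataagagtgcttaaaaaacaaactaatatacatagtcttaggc
RLP23: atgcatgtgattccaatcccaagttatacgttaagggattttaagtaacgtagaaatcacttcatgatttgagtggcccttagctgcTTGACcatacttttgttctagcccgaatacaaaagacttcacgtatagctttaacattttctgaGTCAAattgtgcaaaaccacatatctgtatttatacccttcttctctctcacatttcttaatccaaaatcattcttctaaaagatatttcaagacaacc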

How the data were processed

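RNA of rosettes was sequenced in 8 libraries. Per the file headers, the authors deposited 2 values for each gene and library, a read count and an FPKM. Per the submitters' processing notes, HISAT2 2.0.4 and TAIR10 were used. The counting tool and its strand setting are not given in the sources used here. Overlapping, antisense or near-identical genes may therefore share reads. The tables of the eds1 line and of the PBL19C3A line were joined by gene, giving 17358 genes, and 0 of 284202 values repeated between files differed. A gene absent from a table was given no value. The files carry locus identifiers without coordinates, so names, sequences and positions come from the TAIR10.1 reference annotation (RefSeq), which matched 17985 genes.

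The deposited counts entered edgeR 4.0.16 under R 4.3.3 (quasi-likelihood test, TMM scaling, filterByExpr, Benjamini-Hochberg adjustment over all genes of a comparison, threshold 0.05) with genotype as the only term. Each comparison was fitted separately, with all libraries that have a value for the gene. Genes lacking values in some libraries were read from a fit of the remaining ones. The biological coefficient of variation was 18.1% in the comparison with the PBL19C3A line. The procedure was tested on simulated counts with a coefficient of variation of 18%. For the comparison with the PBL19C3A line, it recovered 61% of 100 genes changed 2-fold and 100% of 100 genes changed 4-fold. It also called 11 unchanged genes. DESeq2 1.42.0, limma 3.58.1 on log2(FPKM + 1) and log2(FPKM + 0.1), other scalings and filters, and leaving out single libraries were alternatives. The 22 lists hold 322 genes, of which 260 were tested and 41 had no value in the eds1 line. Named genes are EDS1, PBL19 and ICS1, up to 3 list members with the largest called changes, the 6 highest and 6 lowest genes of at least 10 FPKM whose libraries do not overlap, the 4 largest changes around eds1, the 10 highest genes without a value, and the 4 highest and 4 lowest against the sid2 line. Further list members and families were named after their values were seen. The members and lists were chosen with earlier results of these data known. One planned promoter is not reported here. Floors use 3 counts over both libraries of a group, and limits 1 CPM. Comparisons share libraries: that with the PBL19C3A line and those with WT and the sid2 line all use the eds1 libraries.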

Additional observations from a re-analysis of the deposited data

How the results depend on the processing

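The count of 4894 genes called between the eds1 line and the PBL19C3A line was 5707 with DESeq2, 4898 with DESeq2's size factors in edgeR, 4894 without the low-count filter, 4821 with a mean of at least 100 counts, 3976 with only these 2 genotypes fitted, 4964 and 4922 with limma on log2(FPKM + 1) and log2(FPKM + 0.1), 5733 with genes absent from the table of the eds1 line entered at 0 counts, 5378 with them entered at 1 CPM (chosen after seeing the data), and 4788 without AT3G43000 to AT3G48640. With the replicate number as a block it was 6020; deviations of same-numbered libraries from their group means correlated at 0.145 to 0.38, but only 2 numbers exist and the labels do not say that they pair libraries. Leaving out single libraries gave 2479 to 4543.

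Against WT, DESeq2 called 92 and the fit of only these 2 genotypes 17, and 22 to 32 were called without single libraries. Against the sid2 line the counts were 2573 with DESeq2, 848 with only the 2 genotypes, 2471 with the replicate block, and 617 to 1398 without single libraries. The PBL19C3A line against WT gave 3729 to 6287 without single libraries.

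Among lists, leaving out single libraries gave 9 to 14 called sensor receptors, 10 to 18 pattern receptor genes, 3 to 8 jasmonate and ethylene genes, 4 to 22 photosynthesis genes, 10 to 16 cell expansion genes, 3 to 6 abscisic acid and cold genes, 1 to 3 heat shock genes, 1 to 2 clock genes, 3 to 8 genes of guard cells, epidermis and phloem, 0 to 0 flower genes and 0 to 1 reference genes. The block called 3 clock genes, and DESeq2 0 flower genes. The causes were not tested. Of 93 named genes past the threshold 0 reversed and 13 lost the call in at least 1 alternative. Genes without a value in the eds1 line limit the lower side of the comparison.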

Other observations

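Gene families, grouped by the product names of the reference annotation after the data were seen, extended the lists. Of 38 tested WRKY transcription factors 16 were lower in the eds1 line than in the PBL19C3A line, 0 were higher, and 16 WRKY genes beyond these 38 had no value in the eds1 line. Receptors with a TIR domain were lower in 43 and higher in 2 of 77 tested genes, with a median log2 fold change of -0.79, and 14 beyond these had no value. AT5G41750, a receptor of this class, had 5.83 and 1.67 FPKM in the eds1 line and 67.1 and 56.3 FPKM in the PBL19C3A line (log2 fold change -4.08 ± 0.69 SE, adjusted p = 0.00525). Receptor-like proteins were lower in 20 and higher in 1 of 33 genes, among them RLP41 at 0.847 and 1.23 FPKM in the eds1 line and 63.5 and 76.6 FPKM in the PBL19C3A line (log2 fold change -6.06 ± 0.35 SE, adjusted p = 8.9e-05). Leucine-rich repeat receptor kinases, which serve growth as well as immunity, were split, with 21 higher and 23 lower of 96. WAK1, a kinase that binds pectin in the cell wall, had 6.96 and 26 FPKM in the eds1 line and 237 and 264 FPKM in the PBL19C3A line (log2 fold change -3.91 ± 0.72 SE, adjusted p = 0.00723), and 6 of 8 wall-associated kinases were lower. Of 34 proteasome subunits 17 were lower and 0 higher by small steps, with a median of -0.40, while of 299 cytosolic ribosomal proteins 14 were lower and 11 higher.

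On the higher side, 9 of 16 Aux/IAA genes, repressors of auxin response that auxin itself induces, were higher and 0 lower. IAA29 (AT4G32280) had 19.8 and 18.9 FPKM in the eds1 line, 2.62 and 2.83 FPKM in the PBL19C3A line and 12 and 11.2 FPKM in WT (log2 fold change 2.82 ± 0.27 SE, adjusted p = 0.000608). Water channels were higher in 12 and lower in 3 of 20 genes, and the plasma membrane aquaporin PIP2A had 1106 and 1221 FPKM in the eds1 line and 511 and 606 FPKM in the PBL19C3A line (log2 fold change 1.06 ± 0.15 SE, adjusted p = 0.00296). Light-harvesting and photosystem genes were higher in 34 of 50. The single member that was lower was LHCB4.3, at 2.07 and 1.94 FPKM in the eds1 line and 12.5 and 11.5 FPKM in the PBL19C3A line (log2 fold change -2.60 ± 0.54 SE, adjusted p = 0.0116). Of 39 SAUR genes 21 were higher and 5 lower, the lowest being AT1G56150, at 2.87 and 1.66 FPKM in the eds1 line and 25.3 and 22.9 FPKM in the PBL19C3A line (log2 fold change -3.40 ± 0.29 SE, adjusted p = 0.000383). These counts stand beside 12% higher and 16.2% lower over all genes tested.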
